A study of Mus musculus with 6 samples.

Results

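The Clec genes encode proteins with a C-type lectin fold, and 33 of the 19938 genes that the platform annotation names with a single symbol belong to this series of symbols (Clec followed by a digit). They were taken by symbol alone, with the brightest probe set standing for a gene. The arrays were hybridised with RNA of whole bone marrow flushed from the shafts of femurs and tibiae of male mice of 10 weeks, with 3 arrays from wild type and 3 from diabetic animals. Both groups are labelled with the BKS background and the name of the db (Leprdb) leptin receptor stock, and the labels do not spell out which Lepr alleles each animal held. The labels state no further treatment and mention no sorting of the cells. Whether an array stands for 1 animal or a pool is not stated in the labels, so the p-values reflect only how these arrays vary, which may be technical. Lepr, the receptor gene the stock is named for, had a log2 signal of 5.80 ± 0.14 on wild type and 5.69 ± 0.04 on diabetic arrays (SD, n = 3 each), below the level filter, and a whole-gene signal does not check the db splice change.

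C-type lectin receptors let myeloid cells sense sugars, lipids, dead cells and changes on neighbouring cells. Activating members signal through the kinase SYK, and several but not all of them through the adaptor CARD9. They do so by a tyrosine motif of their own or by pairing with the adaptor FcR gamma (Fcer1g) or DAP12 (Tyrobp). Inhibitory members carry a tyrosine motif that recruits phosphatases such as SHP-1 (Ptpn6). In marrow they are best known from neutrophils, monocytes, dendritic cells and platelets. The symbol is wider than the receptor family, since Clec3a, Clec3b and Clec11a encode secreted proteins and Clec16a an intracellular protein of endosomes and mitophagy.

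Of the 33 members, 25 lie on chromosome 6. A run of 9 holds the Clec4 genes other than Clec4f and Clec4g, and a second run of 13 holds the Clec2 genes other than Clec2l together with Clec12a, Clec12b, Clec1b, Clec9a, Clec1a and Clec7a beside genes of NK cell receptors. Promoter windows in the RefSeq table of GRCm38.p6, which reach from 250 bases before to 50 bases after a gene's start, were found for 26 members. The ISRE core, GAAA repeated after a gap of any 2 bases and bound by interferon-activated factors, was searched on both strands and was found in 3 of these members, Clec2d, Clec4b1 and Clec4d, or 11.5%, and in 3.44% of all 32851 windows. The GAS letters TTCNNNGAA were found in Clec4a2 alone, or 3.85%, against 8.3% of all windows, and the PU.1 letters GAGGAAGT in 0 of the 26, against 3.2%. Such a match describes letters only. The 250 bases before the start of Clec2i and Clec2d are shown because these 2 ligand genes of the second run had the largest differences of their family, with opposite signs. Capitals mark the ISRE core, which the Clec2i window does not hold.
Clec2i (chr6:128887337-128887586, plus strand): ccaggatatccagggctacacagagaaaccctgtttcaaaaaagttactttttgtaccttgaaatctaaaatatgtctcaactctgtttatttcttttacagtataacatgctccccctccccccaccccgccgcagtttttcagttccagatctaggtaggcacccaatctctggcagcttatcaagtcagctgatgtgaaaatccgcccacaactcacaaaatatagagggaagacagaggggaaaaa
Clec2d (chr6:129180365-129180614, plus strand): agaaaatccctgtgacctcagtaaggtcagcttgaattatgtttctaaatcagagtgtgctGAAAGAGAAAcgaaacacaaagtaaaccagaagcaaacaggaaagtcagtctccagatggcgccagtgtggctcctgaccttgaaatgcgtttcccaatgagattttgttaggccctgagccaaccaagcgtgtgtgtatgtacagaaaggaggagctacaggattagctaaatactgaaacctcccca

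The question was whether any of these receptors and ligands differed between diabetic and wild type marrow. No Clec gene did so past the threshold. Signals are log2 values after robust multi-array averaging (RMA), and a gene was tested where its mean over the 6 arrays reached 7.503, the 40th percentile of probe sets with a symbol. This left 18 members tested and 15 dim members below the filter. With p-values from limma adjusted by the Benjamini-Hochberg method over the 12029 genes tested, 0 of the 18 were under the threshold of 0.05, where 0.432% of all genes were, so that 0 of 18 is near the background. Weighting the arrays by their estimated quality put 8 of the 18 past the threshold along with 1878 of all genes, but that estimate did not converge and rested mostly on wild type array 2. At an unadjusted p under 0.05 there were 6 of the 18, against 7.18% of all genes, with 3 higher in diabetic marrow (3.98% of all genes) and 3 lower (3.2%). These were Clec2i, Clec4b2 and Clec4a2 on the higher side and Clec9a, Clec10a and Clec2d on the lower side. Groups did not overlap for 5 of the 18, against 12.4% of all genes. Of these, Clec2i, Clec4b2 and Clec12a had all diabetic arrays higher (6.97% of all genes) and Clec10a and Clec2d all lower (5.39%). The median log2 change of the 18 was 0.02, and that of all genes tested was 0.00. All changes are diabetic minus wild type, and the members' changes ran from -0.33 for Clec9a to 0.44 for Clec2i. Signals of different probe sets depend on their probes and are not compared as amounts of RNA.

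**Figure D1:**
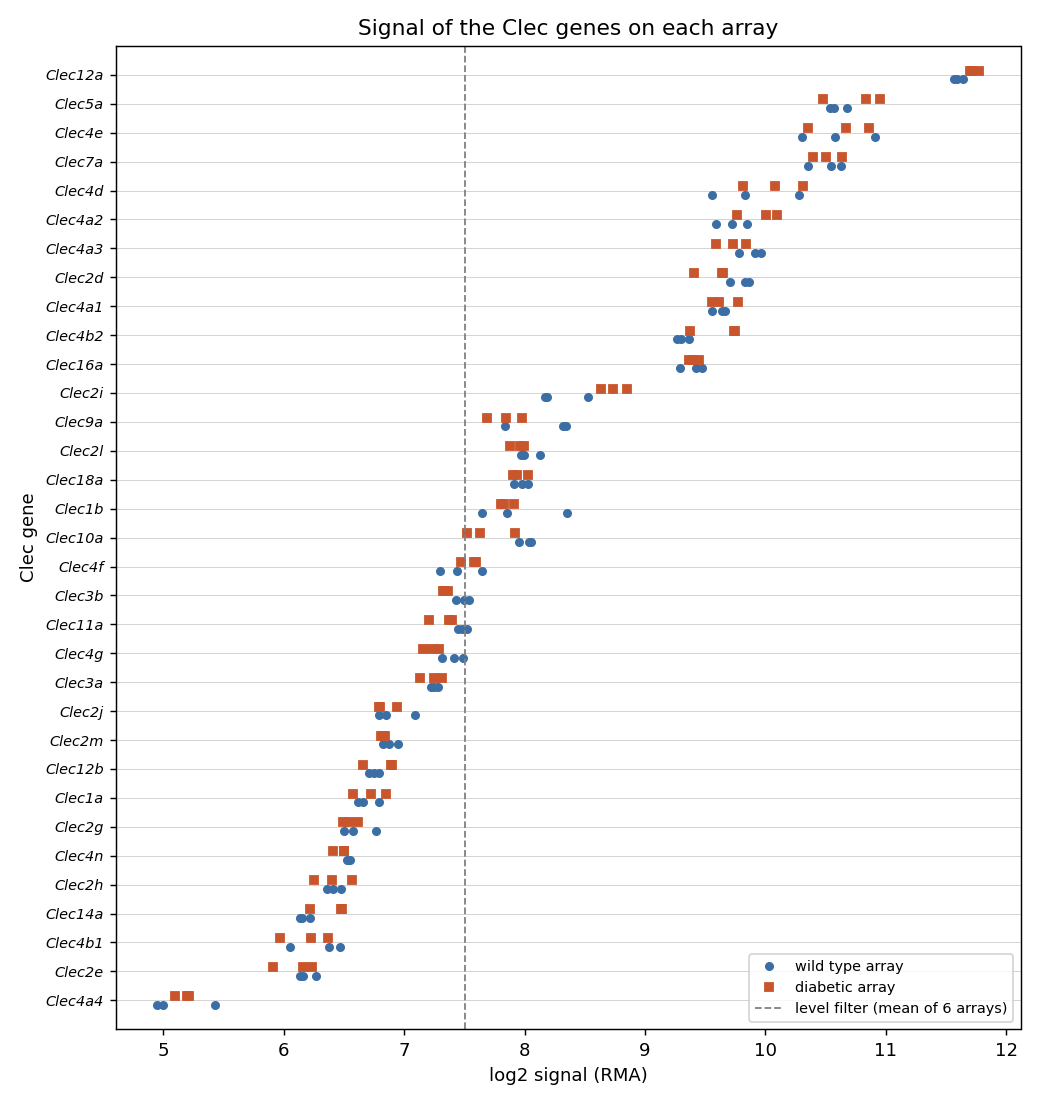
Log2 signal (RMA, horizontal axis) of each of the 33 Clec genes on the 3 wild type arrays (circles) and the 3 diabetic arrays (squares), ordered by the mean over 6 arrays, with the level filter as a dashed line. For most genes the circles and squares share 1 range, while Clec2i, Clec4b2 and Clec12a have every square to the right of the circles. Clec10a, Clec2d, Clec11a, Clec3b, Clec4g and Clec4n have every square to the left of the circles.

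**Figure D2:**
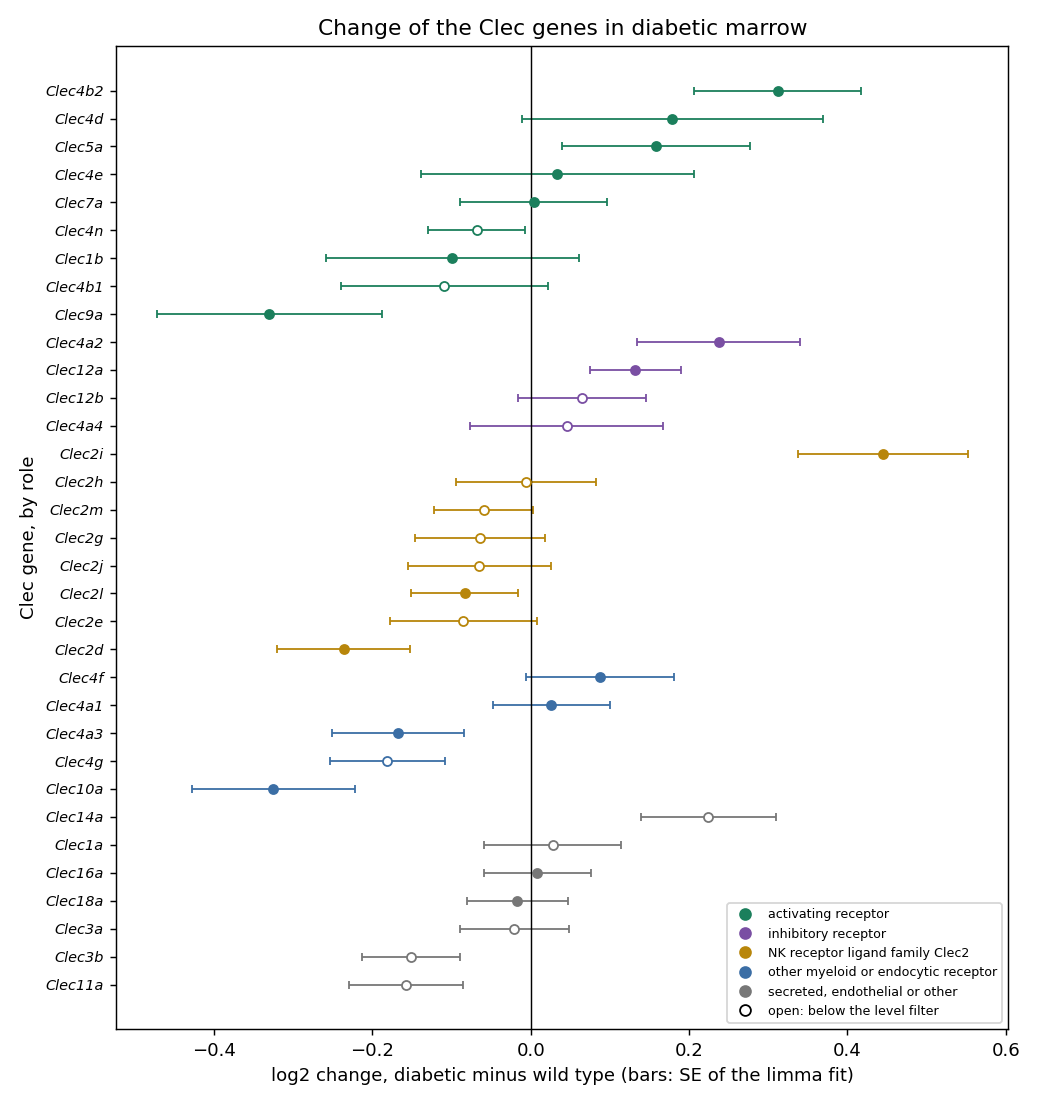
Log2 change, diabetic minus wild type (horizontal axis), of the 33 Clec genes grouped by role, with bars of 1 SE of the limma fit and open circles for members below the level filter. Clec2i lies farthest to the right at 0.44 and Clec9a farthest to the left at -0.33.

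The Clec2 genes encode ligands on the cell surface that NK receptors of the Klrb1 family read. Clec2i, or Clr-g, a ligand of the receptor encoded by Klrb1f, had log2 signals of 8.53, 8.19 and 8.17 on wild type arrays 1, 2 and 3 and of 8.64, 8.73 and 8.85 on diabetic arrays 1, 2 and 3. Every diabetic array was above every wild type array, although wild type array 1 came within a small step of diabetic array 1. Its log2 change was 0.44 ± 0.11 (SE, n = 3 per group; 95% interval 0.20 to 0.69), or 1.36-fold, the largest of the 18 tested members and of the 15 dim ones (limma, Benjamini-Hochberg adjusted p 0.277). The adjusted p was 0.0434 without wild type replicate 1, where the log2 change was 0.56, and between 0.254 and 0.915 without any other array.

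Clec2d, or Clr-b, the ligand that marks healthy blood cells for an inhibitory Klrb1 receptor, had the opposite sign. Its log2 signals were 9.84, 9.86 and 9.71 on wild type arrays 1, 2 and 3 and 9.41, 9.64 and 9.65 on diabetic arrays 1, 2 and 3, with no overlap. The log2 change was -0.24 ± 0.08 (SE, n = 3 per group; 95% interval -0.43 to -0.04; limma, Benjamini-Hochberg adjusted p 0.585). The promoter with the ISRE core printed above belongs to this gene. The interferon response list had 19 of 19 tested members lower in diabetic marrow and 13 past the threshold. Of all 12029 genes tested, 5733 were lower and 0.333% were past the threshold on the lower side. Mx1, 1 of the 13, entered the test only just. Its mean log2 signals of 7.97 on wild type and 7.05 on diabetic arrays lay on either side of the filter. The number of list members past the threshold was 0 without diabetic replicate 2 and also 0 with the replicate number added as a block. It was 4, 2 and 2 without wild type replicate 2, diabetic replicate 1 and diabetic replicate 3, and 14 without wild type replicate 1 or 3. The mean log2 signal of that list ran from 9.70 to 10.10 on wild type and from 8.88 to 8.98 on diabetic arrays, and its part in the Clec2d value was not tested. Of the other 2 members with the same letters in their windows, Clec4b1 was at -0.11 ± 0.13 and Clec4d at 0.18 ± 0.19 (SE, n = 3 per group).

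Clec2l, a member known from the nervous system, was the third tested Clec2 gene and had a log2 change of -0.08 ± 0.07 (SE, n = 3 per group). The other 5, Clec2e, Clec2g, Clec2h, Clec2j and Clec2m, lay below the filter, with mean log2 signals from 6.14 for Clec2e to 6.88 for Clec2j. Their log2 changes ran from -0.08 for Clec2e to -0.01 for Clec2h. Of the receptors, Klrb1f had a log2 signal of 10.90 ± 0.09 on wild type and 10.89 ± 0.04 on diabetic arrays (SD, n = 3 each), a log2 change of -0.01 ± 0.07 (SE). Klrb1a, Klrb1b and Klrb1c were below the filter, at log2 changes of -0.20 ± 0.11, 0.08 ± 0.08 and -0.08 ± 0.08 (SE). T and NK cell markers had 8 of 9 tested members lower and 0 past the threshold, and the list mean ran from 9.06 to 9.35 on wild type and from 8.93 to 9.28 on diabetic arrays. The tested member of that list with the smallest p, Cd4, the co-receptor of helper T cells, was at -0.53 ± 0.09 (limma, Benjamini-Hochberg adjusted p 0.0974).

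Among activating receptors, 7 of 9 members were tested, 5 with a positive and 2 with a negative change, and 0 passed. Clec9a, or DNGR-1, by which type 1 conventional dendritic cells bind actin of dead cells, had log2 signals of 7.84, 8.32 and 8.35 on wild type arrays 1, 2 and 3. On diabetic arrays 1, 2 and 3 it had 7.84, 7.69 and 7.98. Wild type arrays 2 and 3 stood above the rest, and wild type array 1 lay within the diabetic range. Its log2 change was -0.33 ± 0.14 (SE, n = 3 per group; 95% interval -0.66 to -0.0015; limma, Benjamini-Hochberg adjusted p 0.694). The change was -0.49 without wild type replicate 1 and -0.24 without wild type replicate 3 (limma, Benjamini-Hochberg adjusted p 0.135 and 0.624).

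In whole marrow, fewer cells of a type and less RNA per cell cannot be told apart. The conventional dendritic cell list had 10 tested members, 7 with a positive and 3 with a negative change and 0 past the threshold, and its mean ran from 10.02 to 10.18 on wild type and from 10.04 to 10.15 on diabetic arrays. Its part in the Clec9a value was not tested. The tested member of that list with the smallest p was Itgax, which encodes CD11c, at -0.37 ± 0.07 (limma, Benjamini-Hochberg adjusted p 0.100). Groups overlapped for Batf3 at -0.07, Irf8 at 0.003, Zbtb46 at 0.0004, Cd24a at 0.01 and Wdfy4 at 0.02. The tested members whose groups did not overlap, named after their values were seen, went both ways. Of all genes tested, 12.4% had groups that did not overlap. Itgax and Cadm1, at -0.31 ± 0.09, lay lower in diabetic marrow, and Id2 at 0.31 ± 0.08, Flt3 at 0.23 ± 0.06 and Sirpa at 0.15 ± 0.07 lay higher (SE, n = 3 per group). Below the filter, Xcr1 at -0.22 ± 0.09 and Tlr3 at -0.23 ± 0.08 also lay lower without overlap. Itgae, also dim, was at 0.02 ± 0.07 and overlapped (SE of the fit without the filter). Plasmacytoid dendritic cell markers had 8 of 9 members lower. Past the threshold on the lower side was 1 of them, against 0.333% of all genes tested. That gene was Irf7, which is also an interferon response gene. Its adjusted p (limma, Benjamini-Hochberg) was 0.0260 and lay between 0.117 and 0.132 without wild type replicate 2 or any 1 of the diabetic arrays. With the replicate number added as a block, the adjusted p of Irf7 was 0.128 (limma, Benjamini-Hochberg).

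Clec1b, or CLEC-2, the platelet receptor for podoplanin, had log2 signals of 7.65, 7.85 and 8.35 on wild type arrays 1, 2 and 3 and of 7.91, 7.81 and 7.83 on diabetic arrays 1, 2 and 3. The diabetic arrays lay close together inside the wide wild type range. Its log2 change was -0.10 ± 0.16 (SE, n = 3 per group; 95% interval -0.47 to 0.27), and without wild type replicate 3 it was 0.10. The megakaryocyte and platelet list had its mean at 9.66, 9.95 and 10.46 on wild type arrays 1, 2 and 3 and at 10.00, 10.07 and 9.78 on diabetic arrays 1, 2 and 3. Wild type array 3 was thus the highest and wild type array 1 the lowest for both the gene and the list. Erythroid markers had the same extremes, with list means of 11.99 on wild type array 1 and 12.51 on wild type array 3. Among diabetic arrays, Clec1b was lowest on array 2, where the platelet list was highest. The megakaryocyte and platelet list had 9 tested members, 7 with a negative change, and 0 past the threshold. Pdpn, which encodes podoplanin, was at 8.002 ± 0.03 on wild type and 7.91 ± 0.08 on diabetic arrays (SD, n = 3 each), a log2 change of -0.10 ± 0.06 (SE; limma, Benjamini-Hochberg adjusted p 0.900).

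**Figure D3:**
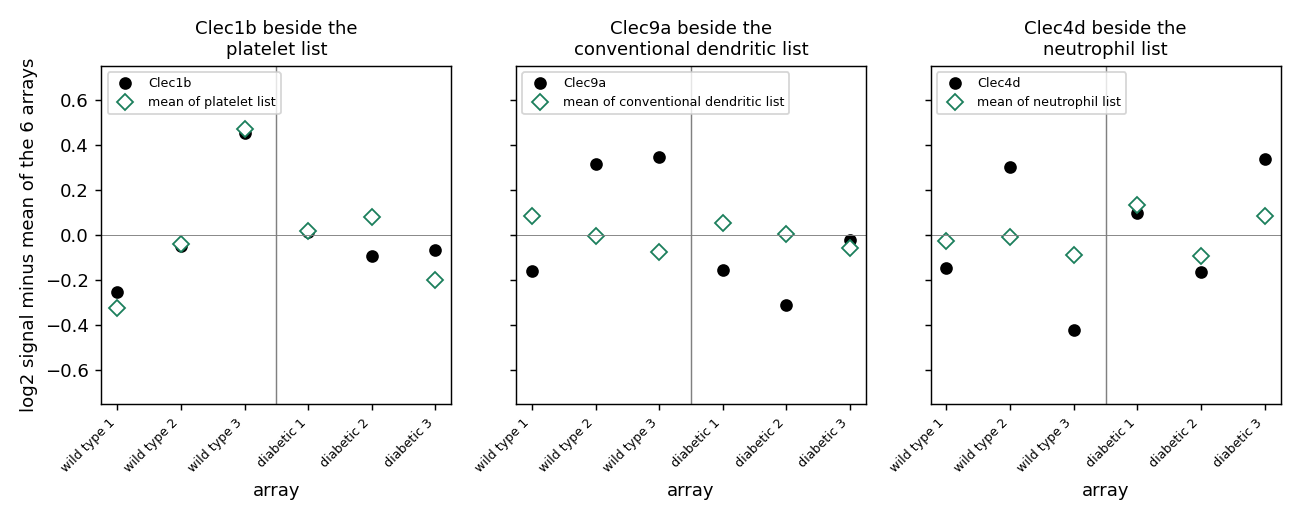
Log2 signal minus the mean of the 6 arrays (vertical axis) on each array, for Clec1b, Clec9a and Clec4d (filled circles) and for the mean of the tested members of a marker list (open diamonds). Clec1b and the platelet list are both highest on wild type array 3 and lowest on wild type array 1, but differ in their order on the diabetic arrays. Clec9a on wild type arrays 2 and 3 lies above the dendritic cell list.

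Clec4d (MCL, or Dectin-3) and Clec4e (Mincle) are neighbouring genes whose products pair with each other and with FcR gamma to sense microbial glycolipids. Clec4d had log2 signals of 9.83, 10.28 and 9.56 on wild type arrays 1, 2 and 3 and of 10.08, 9.82 and 10.32 on diabetic arrays 1, 2 and 3. Clec4e had 10.30, 10.91 and 10.58 on wild type and 10.67, 10.35 and 10.86 on diabetic arrays 1, 2 and 3. Both genes overlapped widely between the groups, with wild type array 2 the highest wild type array and diabetic array 2 the lowest diabetic array for each. Their log2 changes were 0.18 ± 0.19 and 0.03 ± 0.17 (SE, n = 3 per group), with 95% intervals of -0.26 to 0.62 and -0.37 to 0.43, so differences of that size in either direction could not be resolved. The change of Clec4d was 0.37 without wild type replicate 2, 0.31 without diabetic replicate 2, 0.056 without diabetic replicate 3 and 0.013 without wild type replicate 3.

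Clec4b2, a DCAR-type receptor of the same run of genes that pairs with FcR gamma, had log2 signals of 9.37, 9.30 and 9.26 on wild type arrays 1, 2 and 3 and of 9.74, 9.37 and 9.75 on diabetic arrays 1, 2 and 3. Diabetic array 2 only just cleared the wild type arrays while the other two stood well above. Its log2 change was 0.31 ± 0.11 (SE, n = 3 per group; 95% interval 0.07 to 0.56), or 1.24-fold (limma, Benjamini-Hochberg adjusted p 0.567). Its relative Clec4b1 was dim, at 6.24 over the 6 arrays. The Clec4 genes are close paralogs, so that a probe set may take up RNA of a neighbour.

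Clec5a (MDL-1), a DAP12-coupled receptor of neutrophils and monocytes, had log2 signals of 10.68, 10.54 and 10.57 on wild type and 10.83, 10.48 and 10.95 on diabetic arrays 1, 2 and 3. Diabetic array 2 was the lowest of all 6 arrays and the other 2 diabetic arrays the highest, and the log2 change was 0.16 ± 0.12 (SE, n = 3 per group). Clec7a (Dectin-1), the receptor for fungal beta-glucan, was at 10.51 ± 0.14 on wild type and 10.52 ± 0.12 on diabetic arrays (SD, n = 3 each). Its log2 change of 0.00 ± 0.09 (SE) had a 95% interval of -0.21 to 0.22. Clec4n (Dectin-2), the receptor for fungal mannans, lay below the filter with a log2 change of -0.07 ± 0.06 (SE, n = 3 per group).

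Inhibitory receptors had a positive change in 4 of 4 members, 2 of them tested, and 0 passed. Of all genes tested, 52.3% had a positive change. Clec12a, a receptor for uric acid crystals that restrains neutrophils and monocytes, had log2 signals of 11.64, 11.59 and 11.57 on wild type and 11.78, 11.70 and 11.72 on diabetic arrays 1, 2 and 3. Its groups did not overlap and were narrow, but the log2 change was only 0.13 ± 0.06 (SE, n = 3 per group), or 1.10-fold (limma, Benjamini-Hochberg adjusted p 0.702). Clec4a2 (DCIR), the inhibitory receptor of the Clec4 run, had 9.85, 9.72 and 9.59 on wild type and 10.01, 9.77 and 10.10 on diabetic arrays 1, 2 and 3. Here diabetic array 2 fell inside the wild type range. The log2 change was 0.24 ± 0.10 (SE, n = 3 per group; 95% interval 0.00 to 0.47; limma, Benjamini-Hochberg adjusted p 0.694). Clec12b and Clec4a4, the dim members, had mean log2 signals of 6.78 and 5.14 over the 6 arrays. Their log2 changes were 0.07 ± 0.08 and 0.05 ± 0.12 (SE), and the sign of Clec4a4 turned without wild type replicate 1 or 3.

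Diabetic array 2 was the lowest diabetic array for 13 of the 18 tested members and the highest for 0 of them, whereas it was lowest for 42.0% and highest for 33.3% of all genes tested. Wild type array 3 was the lowest wild type array for 10 of the 18, against 38.8% of all genes. The neutrophil list, with 9 of 14 members higher and 0 past the threshold, had means of 12.90, 12.92 and 12.84 on wild type and 13.06, 12.83 and 13.01 on diabetic arrays 1, 2 and 3. Diabetic array 2 and wild type array 3 were thus also the lowest of their groups for neutrophil markers, and the part of these markers in the receptor values was not tested. Without diabetic replicate 2 the log2 changes of Clec4b2, Clec4a2 and Clec5a were 0.44, 0.33 and 0.30, and the smallest of their 3 adjusted p-values (limma, Benjamini-Hochberg) was 0.126. Without diabetic replicate 3 the log2 changes of these genes were 0.25, 0.17 and 0.059.

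**Figure D4:**
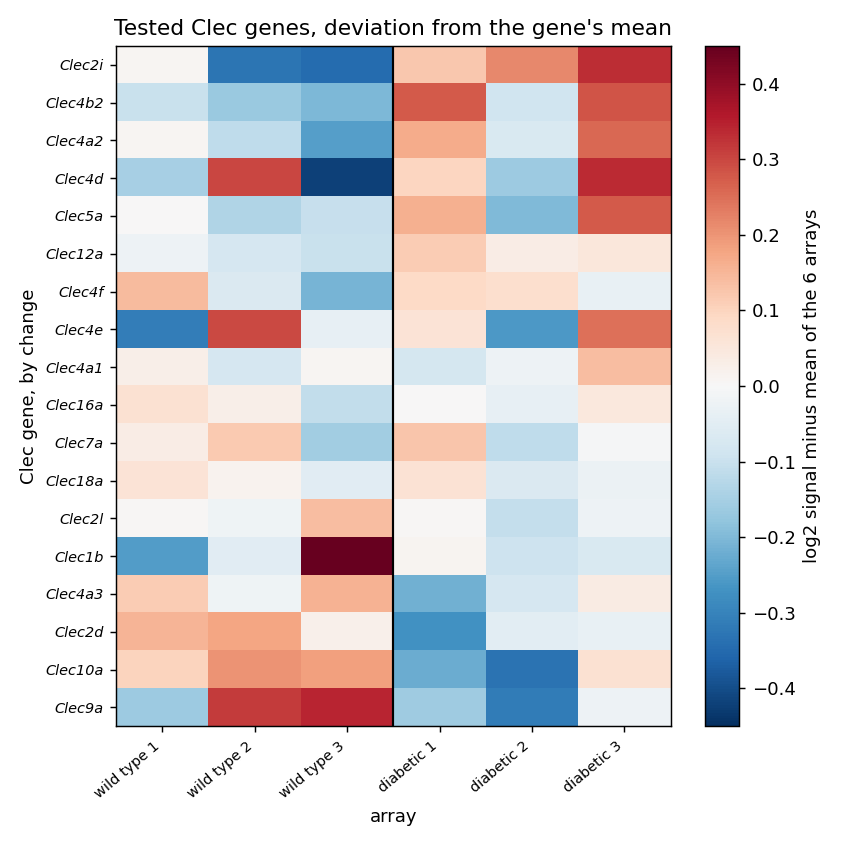
Log2 signal minus the gene's mean over the 6 arrays (colour) for the 18 tested Clec genes (rows, ordered by change) on each array (columns, wild type left of the line). Clec2i is high on all 3 diabetic arrays, Clec1b is high on wild type array 3 alone, and several receptors that are high on diabetic arrays 1 and 3 are low on diabetic array 2.

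B cell markers had 7 of 8 tested members lower and 0 past the threshold, with list means from 10.37 to 11.46 on wild type, where array 3 was lowest, and from 10.59 to 10.94 on diabetic arrays. Erythroid markers had 6 of 9 members higher and 0 past the threshold.

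Among the other myeloid receptors, 4 of 5 were tested, 2 with a positive and 2 with a negative change. Clec10a (MGL1), a galactose receptor of macrophages and dendritic cells, had log2 signals of 7.96, 8.06 and 8.04 on wild type and 7.63, 7.52 and 7.92 on diabetic arrays 1, 2 and 3. The groups did not overlap, with diabetic array 3 just below the wild type arrays. Its log2 change was -0.33 ± 0.10 (SE, n = 3 per group; 95% interval -0.56 to -0.09), or 1.25-fold lower (limma, Benjamini-Hochberg adjusted p 0.537). Mgl2, its paralog, named here after its values were seen, was at -0.06 ± 0.12 (SE). Monocyte and macrophage markers had 8 of 13 members lower and 0 past the threshold, with list means from 10.28 to 10.39 on wild type and from 10.20 to 10.29 on diabetic arrays, and their part in the Clec10a value was not tested. The member of that list with the smallest p, Cd163, a scavenger receptor for haemoglobin, was at 0.34 ± 0.06 (limma, Benjamini-Hochberg adjusted p 0.0638). Groups overlapped for F13a1 at 0.28, Adgre1 at 0.27, Ccr2 at 0.05, Csf1r at -0.01 and Vcam1 at -0.13. The members of that list whose groups did not overlap, named after their values were seen, went both ways. Of all genes tested, 12.4% had groups that did not overlap. C1qb at -0.62 ± 0.12, C1qc at -0.35 ± 0.12, Siglec1 at -0.34 ± 0.07 and C1qa at -0.32 ± 0.10 lay lower in diabetic marrow. So did Ly86 at -0.31 ± 0.09 and Cd68 at -0.25 ± 0.07, while Cd163 and Cx3cr1, at 0.20 ± 0.09, lay higher (SE, n = 3 per group).

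Clec4a3 and Clec4a1, DCIR-like genes of the Clec4 run, were at -0.17 ± 0.08 and 0.03 ± 0.07 (SE, n = 3 per group). Within that run, the 6 tested members had 5 positive changes and 1 negative one, that of Clec4a3, with a median log2 change of 0.11, while the 6 tested members of the second run had 3 of each and a median of -0.05. Clec4f, a receptor of liver Kupffer cells, entered the test only just, with mean log2 signals of 7.46 on the wild type and 7.55 on the diabetic arrays, on either side of the filter, and was at 0.09 ± 0.09 (SE). The members just outside the filter were Clec3b and Clec11a, with means over the 6 arrays of 7.41 and 7.40. Clec4g (LSECtin), a receptor of liver and lymph node sinus cells, was dim, with log2 signals of 7.42, 7.31 and 7.49 on wild type and 7.23, 7.29 and 7.16 on diabetic arrays 1, 2 and 3. Its brighter probe set gave -0.18 ± 0.07 (SE; limma over 19938 genes without the filter, Benjamini-Hochberg adjusted p 0.793), and its second probe set gave 0.05, so the sets disagreed in sign.

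The remaining 7 genes encode secreted, endothelial or intracellular proteins. The tested ones were Clec16a at 0.01 ± 0.07 and Clec18a at -0.02 ± 0.06 (SE, n = 3 per group), both overlapping between the groups. Clec14a, a protein of vessel walls, was dim, with log2 signals of 6.13, 6.22 and 6.15 on wild type and 6.49, 6.22 and 6.47 on diabetic arrays 1, 2 and 3. Diabetic array 2 overlapped wild type array 2, and the log2 change was 0.22 ± 0.085 (SE; limma over 19938 genes without the filter, Benjamini-Hochberg adjusted p 0.768). Endothelial markers had 6 of 6 tested members with a negative change, 0 of them past the threshold, and a median of -0.08. Of the dim endothelial markers, Tek at 0.17 ± 0.07 lay higher in diabetic marrow without overlap. Emcn at -0.12 ± 0.16 and Kdr at -0.16 ± 0.11 overlapped (SE of the fit without the filter). Clec3b (tetranectin), a plasminogen-binding protein of the matrix, had 7.43, 7.50 and 7.54 on wild type and 7.33, 7.37 and 7.32 on diabetic arrays 1, 2 and 3, with no overlap and a log2 change of -0.15 ± 0.06 (SE). Clec11a (osteolectin), a growth factor of marrow stroma that promotes bone formation, also had groups that did not overlap, from 7.44 to 7.52 in wild type and from 7.21 to 7.40 in diabetic marrow, with a log2 change of -0.16 ± 0.07 (SE). The stromal and osteoblast list had 2 of 4 tested members on each side of zero. Clec1a, a receptor for fungal melanin, and Clec3a, a cartilage protein, were dim, with mean log2 signals of 6.70 and 7.24 over the 6 arrays. Their log2 changes were 0.03 ± 0.09 and -0.02 ± 0.07 (SE).

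In the fit without the filter, 3 of the 15 dim members, Clec4g, Clec3b and Clec14a, had an unadjusted p under 0.05, against 5.9% of all genes, and 0 of all 33 members passed after adjustment, against 0.286%. Of the 15, 4 had groups that did not overlap, Clec3b, Clec4g, Clec4n and Clec11a, against 10.8% of all genes, and these 4 were lower in diabetic marrow.

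The signalling chain behind the receptors was measured on the same arrays, and 0 of its 25 genes passed. Of these 25 genes, 18 had a positive and 7 a negative change, with a median of 0.05. Syk was at -0.07 ± 0.17, Card9 at 0.16 ± 0.11, Fcer1g at 0.04 ± 0.08, Tyrobp at 0.03 ± 0.07 and Ptpn6 at 0.06 ± 0.10 (SE, n = 3 per group). The smallest p of the chain was that of Hcst, the DAP10 adaptor, at 0.15 ± 0.06 (limma, Benjamini-Hochberg adjusted p 0.690). Card9 and Fcer1g had their lowest diabetic value on array 2, as Clec4b2 and Clec5a did, and as 42.0% of all genes tested did. On diabetic arrays 1, 2 and 3 the log2 signals were 9.80, 9.40 and 9.81 for Card9 and 12.82, 12.67 and 12.97 for Fcer1g.

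Of 16 listed ligands and partners, 9 were tested, 2 with a positive and 7 with a negative change and 0 past the threshold. The list also holds Klrg1, Klrg2 and Klra17, which are not established partners of Clec proteins. Of these, Klra17 at 0.37 ± 0.13 was 1 of the 2 positive changes and Klrg2 at -0.03 ± 0.07 was 1 of the 7 negative ones (SE, n = 3 per group), while Klrg1 was below the filter. The smallest p was that of Lgals9, which encodes galectin-9, a reported ligand of Dectin-1, at -0.34 ± 0.06 (SE, n = 3 per group) with no overlap (limma, Benjamini-Hochberg adjusted p 0.0974).

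Other C-type lectin genes, whose symbols do not start with Clec, had 23 tested members, 14 with a positive and 9 with a negative change. Of all genes tested, 52.3% had a positive change. The threshold was passed by 1 of the 23, and by 0.432% of all genes tested. The 1 of the 23 was Vcan, the matrix proteoglycan versican, which carries a C-type lectin domain at its end. Its log2 signals were 8.81, 8.03 and 8.45 on wild type and 10.04, 9.47 and 10.08 on diabetic arrays 1, 2 and 3, and it rose by 1.43 ± 0.22 (SE, n = 3 per group; limma, Benjamini-Hochberg adjusted p 0.0483). The call held without wild type replicate 1 and was lost without any of the other 5 arrays (adjusted p 0.0696 to 0.268), and also after quantile normalization, median centring or a filter at the 60th percentile (0.0613, 0.0566 and 0.0685). The largest change among the Clec genes, that of Clec2i, had a 95% interval whose upper bound was 0.69.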

How the data were processed

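The authors deposited log2 signals per probe set, and the submitters' processing notes name RMA and Affymetrix Expression Console as tools. RMA equalises the distributions of the arrays, so a shift shared by most genes cannot be seen. Neither the labels nor the notes state the software version or the genome build behind the probe sets. Of 35556 probe sets, 21789 had 1 symbol in the platform annotation, for 19938 genes, and all 33 Clec symbols matched RefSeq. Array medians lay between 7.67 and 7.73.

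Diabetic and wild type arrays were compared in a linear model without covariates (limma 3.58.1 under R 4.3.3, with the data.table package, version 1.17.8), over 12029 genes at or above the level filter, with Benjamini-Hochberg adjustment. Dim members were fitted over all 19938 genes without the filter. Errors are standard errors of the fit or standard deviations over 3 arrays, and intervals cover 95%. The fit was tested on simulated data. Figures used matplotlib 3.10.9 in Python 3.11.15.

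The members, their roles, the marker lists and the promoter motifs were chosen with earlier results of these data known. Every member was to be named, with all 6 array values for the 3 markers Clec4d, Clec9a and Clec1b, the 3 brightest members and those with an unadjusted p under 0.05. From the lists came genes past the threshold, the genes of the signalling core and the Klrb1 genes, and examples with the smallest p. Alternatives changed the filter, the scaling, the choice of probe set, the variance model, the array weights and the features tested, added the replicate number as a block, or left out 1 array. A part of the labelled genotype is not reported here.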

Additional observations from a re-analysis of the deposited data

How the results depend on the processing

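With 3 arrays a group, the number of arrays limits what can be resolved. No Clec gene passed in 8 alternatives, which were no filter, the filter at the 60th percentile, quantile normalization, median centring, the mean of probe sets, trend and robust settings, the replicate block and all probe sets. Leaving out 1 array gave 0 to 1 Clec genes, the 1 being Clec2i without wild type replicate 1, and 3 to 70 of all genes (52 in the full comparison). Array weights gave 1878 genes and 8 Clec genes (Clec2i, Clec4b2, Clec4a2, Clec12a, Clec5a, Clec9a, Clec10a and Clec2d), but their estimation stopped before convergence, with a weight of 11.7 on wild type array 2 and 0.25 to 2.59 on the others. The replicate block gave 2 genes. The correlations of same-numbered deviations were 0.33, -0.04 and -0.05, and not every sample correlated best with its own number. With 3 arrays a group, these values cannot show whether same-numbered samples share more than a number. The median change of the tested members stayed between -0.02 and 0.05 in every alternative.

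Of the 33 members, 17 kept their sign in every alternative run. Clec16a was at -0.0065, -0.0024 and -0.022 and Clec7a at -0.0021, -0.0069 and -0.035 with quantile normalization, median centring and array weights. With array weights the sign also turned for Clec18a (0.018), Clec1b (0.035), Clec2h (0.090), Clec2j (0.0022), Clec2l (0.0011), Clec4a4 (-0.16), Clec4b1 (0.0032), Clec4d (-0.16) and Clec4e (-0.21). Without 1 array, the log2 change ran from -0.044 to 0.045 for Clec16a, -0.053 to 0.011 for Clec18a, -0.039 to 0.099 for Clec1a, -0.25 to 0.10 for Clec1b, -0.15 to 0.0097 for Clec2e, -0.12 to 0.011 for Clec2g, -0.087 to 0.070 for Clec2h, -0.12 to 0.024 for Clec2j, -0.061 to 0.028 for Clec3a, -0.037 to 0.072 for Clec4a1, -0.041 to 0.20 for Clec4a4, -0.11 to 0.19 for Clec4e and -0.073 to 0.064 for Clec7a. None of these members passed in the full comparison, and the cause was not tested.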
